A study of Chlorocebus aethiops with 8 samples.

Results

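The genes described here are the DNA topoisomerases TOP1, TOP1MT, TOP2A, TOP2B, TOP3A and TOP3B, together with SUB1, a single-stranded DNA binding coactivator of RNA polymerase II also known as PC4. They are 7 of the 14133 genes with a probe set annotated to a single symbol, and all such probe sets were read, which gave 15 of the 52865 probe sets on the array. TOP1 and SUB1 were chosen by their low intensity under siRNA against RNA helicase A (RHA) relative to control siRNA, so their siRNA differences are given as a description, with no test. The other members were taken for their family and not for their values, but their siRNA differences come from the same contrast and are described in the same way. Of the 15 probe sets, 14 were in the brighter 50% that entered the tests, and 1 of the 2 TOP3B probe sets was too dim (mean log2 intensity 4.27, against a limit of 4.32).

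The samples were COS cells, a fibroblast-like line from African green monkey kidney that carries the SV40 large T antigen, hybridised to arrays designed for the rhesus macaque. Polysomal RNA and cytoplasmic RNA were each taken from cells transfected with RHA siRNA or with scrambled control siRNA, both at 0.5 nM, giving 4 groups of 2 arrays. All groups shared the same culture schedule, in which cells spent 4 h without serum and 24 h with 10% serum after transfection, and were then split and transfected once more. RHA is the DExH-box helicase encoded by DHX9, and the siRNAs were designed on the human coding sequence. The replicate numbers of the titles define set 1 and set 2, the labels do not say whether the sets came from separate cultures, and p-values therefore measure only the spread between these arrays.

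Topoisomerases relieve the torsional strain that builds up when DNA is copied or transcribed. Type I enzymes cut a single strand and type II enzymes cut both strands and pass another duplex through the gap. TOP1 acts ahead of and behind RNA polymerase and is the target of camptothecin, and TOP1MT does the same work in mitochondria. TOP2A is made mainly in proliferating cells and peaks before mitosis, TOP2B is present in dividing and resting cells alike, and both are targets of etoposide. TOP3A resolves joined DNA molecules with the BLM helicase, and TOP3B acts on DNA and RNA with its partner TDRD3. SUB1 binds single-stranded DNA and stimulates activated transcription, and RHA has been reported in complexes with TOP2A and with RNA polymerase II.

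Median intensity lay between 19.3 and 20.8 on the 8 arrays. Across the tested probe sets, which are not independent replicates, arrays of the same set correlated at 0.931 to 0.987 (Pearson), while both arrays of a group reached only 0.826 to 0.861, so that the sets differed more than the groups did. In set 1 the cytoplasmic control array was the least like its companions (median correlation 0.949, against 0.967 or more for every other array). The siRNA differences and loading changes are therefore given within both sets for the probe sets the results turn on. For some pooled values the value without that array is also given, but others turned as well. For TOP3A probe set MmunewRS.956.1.S1_s_at the siRNA difference over both fractions went from 0.15 to -0.22. Its loading change went from -0.22 to 0.52. A pooled value without that array sets RHA siRNA arrays of both sets against a cytoplasmic control of set 2 alone. It so takes in the difference between sets, whereas values within set 2 do not use that array. The mean 3' minus 5' difference of the actin and GAPDH control probe sets, a sign of RNA integrity, was 5.26 and 5.84 (log2, sets 1 and 2) in polysomal RNA under RHA siRNA and 3.59 and 6.20 under control siRNA. In cytoplasmic RNA it was 4.24 and 5.32 under RHA siRNA and 5.59 and 5.69 under control siRNA. It moved in opposite directions in the fractions of set 1, and its part in the results was not tested. Of the kidney tubule epithelium markers 6 of 12 passed the brightness limit, among them EPCAM and PAX8, while CUBN, LRP2 and UMOD did not. Of fibroblast markers 7 of 8 on the array passed, with VIM at a mean log2 intensity of 12.26. Among leukocyte markers PTPRC (3.17) and ITGAM (3.79) were under the limit. The other 4 of 6 leukocyte markers on the array passed, with mean log2 intensities of 7.15 for CD68, 5.82 for LYZ and 4.46 for CD14 and CD79A, as did 2 of 3 hepatocyte markers, SERPINA1 (8.52) and CYP3A4 (5.80). The mean level of the leukocyte list was 4.69 to 4.93 (log2) under RHA siRNA and 4.53 to 4.98 under control siRNA, that of the hepatocyte list 5.69 to 6.55 and 5.63 to 6.49, and their part in the results was not tested. The tested DHX9 probe set of 4, the targeted gene, was lower in every pairing: it had 97.2 and 269 in polysomal RNA under RHA siRNA, against 359 and 477 under control siRNA, and 130 and 254 in cytoplasmic RNA under RHA siRNA, against 244 and 342 under control siRNA. The other 3 DHX9 probe sets were under the brightness limit and lower in 3, 3 and 2 of 4 pairings.

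TOP1 was the lowest member under RHA siRNA. Its brighter probe set, MmugDNA.10372.1.S1_at, had an intensity of 270 and 282 in polysomal RNA under RHA siRNA (sets 1 and 2), against 580 and 666 under control siRNA. In cytoplasmic RNA it had 182 and 206 under RHA siRNA, against 667 and 525 under control siRNA. All 4 RHA siRNA arrays lay below all 4 control arrays, in both sets and both fractions. The mean intensity of TOP1 over both fractions was 235 ± 48.7 under RHA siRNA and 610 ± 69.7 under control siRNA (SD, n = 4 each). On the log2 scale the difference was -1.39 (SE 0.22; -1.49 in set 1 and -1.30 in set 2), or 38.1% of control, which placed this probe set as number 15 from the bottom among 26383 tested. TOP1 stood at 32.7% of control in cytoplasm (log2 -1.61, SE 0.31) and at 44.4% in polysomes (log2 -1.17, SE 0.31).

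The other TOP1 probe set, MmugDNA.25784.1.S1_at, was dimmer and followed the first in cytoplasm. It had 21.8 and 26.5 in cytoplasmic RNA under RHA siRNA, against 39.7 and 78.8 under control siRNA. In polysomal RNA it had 34.4 and 40.5 under RHA siRNA, against 28.7 and 69.3 under control siRNA, so that it was higher in set 1 and lower in set 2. It was thus lower in 3 of 4 comparisons within a set, with a log2 difference of -0.74 (SE 0.38) over both fractions. Its intensities came close to the testing limit of 19.9. Averaged over both probe sets, TOP1 had a log2 difference of -1.06. After removal of the set means, the TOP1 probe sets correlated with r = 0.79 over the 8 arrays.

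**Figure D1:**
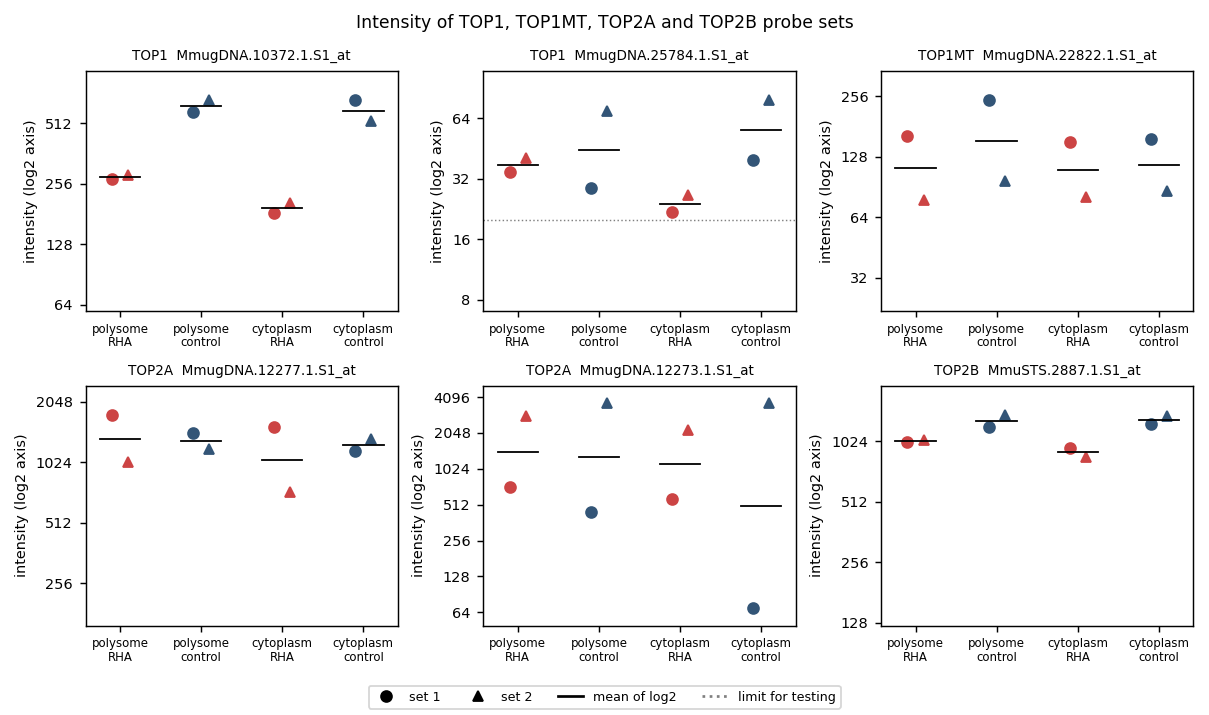
Intensity (log2 axis) of the 6 probe sets of TOP1, TOP1MT, TOP2A and TOP2B by group, with set 1 as circles, set 2 as triangles, RHA siRNA in red and control siRNA in blue; bars are means of the log2 values of 2 arrays and the dotted line is the limit for testing. In the brighter TOP1 and in the TOP2B panel the red points lie below all blue points, while in the second TOP2A panel the triangles lie far above the circles.

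TOP2B, which was not picked for its values, was also lower on all RHA siRNA arrays. Its single probe set, MmuSTS.2887.1.S1_at, had 1017 and 1031 in polysomal RNA under RHA siRNA, against 1196 and 1381 under control siRNA. Cytoplasmic intensities were 947 and 856 under RHA siRNA, against 1243 and 1368 under control siRNA. The highest RHA siRNA array of TOP2B lay below the lowest control array, and the difference had the same sign in 4 of 4 comparisons within a set. The size was smaller than for TOP1, at 74.2% of control over both fractions (log2 -0.43, SE 0.21; -0.31 in set 1 and -0.55 in set 2). With no overlap between siRNAs and low values under RHA siRNA there were 3 of the 14 tested member probe sets, 1 each of TOP1, TOP2B and SUB1, where 1.38% of all tested probe sets had this pattern; TOP1 and SUB1 were chosen for it. Lower values in 4 of 4 comparisons were found for 4 of the 14, TOP1MT being the fourth, against 8.99% of all probe sets. Over both fractions limma called 0% of the 26383 probe sets at an adjusted p under 0.05, with 540 at an unadjusted p under 0.05. On simulated data this fit called none of the changed probe sets in any contrast tried, so the absence of calls here and below does not show that nothing changed.

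TOP1MT, the mitochondrial type I enzyme, differed little in cytoplasm and more in polysomes. Probe set MmugDNA.22822.1.S1_at had 162 and 77.9 in polysomal RNA under RHA siRNA, against 245 and 96.7 under control siRNA. In cytoplasmic RNA it had 151 and 80.4 under RHA siRNA, against 156 and 87.0 under control siRNA. The sets differed more than the siRNAs, since TOP1MT was brighter on each array of set 1 than on any of set 2. Its log2 difference over both fractions was -0.27 (-0.32 in set 1 and -0.21 in set 2), or 83.0% of control. The SE of this difference was 0.46, or 0.17 in a fit that removes the difference between sets. In polysomes the TOP1MT difference was -0.45, or 73.0% of control, with -0.60 in set 1 and -0.31 in set 2. Its SE was 0.65, or 0.24 with the difference between sets removed. In cytoplasm the TOP1MT difference was -0.08. It became 0.34 when the cytoplasmic control array of set 1 was left out, while within set 2 it was -0.11.

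The 2 TOP2A probe sets gave different pictures. The brighter, MmugDNA.12277.1.S1_at, had 1761 and 1024 in polysomal RNA under RHA siRNA, against 1424 and 1196 under control siRNA, and 1525 and 727 in cytoplasmic RNA under RHA siRNA, against 1166 and 1331 under control siRNA. In set 1 TOP2A was thus higher under RHA siRNA in both fractions and in set 2 lower in both (0.35 and -0.55 over both fractions, log2), and the pooled difference was -0.10 (SE 0.33). The other, MmugDNA.12273.1.S1_at, had 719 and 2850 in polysomal RNA under RHA siRNA, against 448 and 3632 under control siRNA. Cytoplasmic intensities were 575 and 2174 under RHA siRNA, against 69.0 and 3657 under control siRNA. The value of 69.0 belongs to the array least like its set. With it, this probe set had a pooled log2 difference of 0.66 over both fractions, and without it -0.77, while within set 2 it was -0.55. By geometric means this TOP2A probe set was 8.96-fold brighter in set 2 than in set 1, while the other was 1.39-fold brighter in set 1. No direction of TOP2A under RHA siRNA can be given from these arrays.

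TOP3A and TOP3B, the type IA enzymes, showed no common direction. The brightest TOP3A probe set, MmunewRS.956.1.S1_s_at, had 66.4 and 147 in polysomal RNA under RHA siRNA, against 54.7 and 168 under control siRNA. In cytoplasmic RNA it had 50.8 and 128 under RHA siRNA, against 40.2 and 112 under control siRNA. Over both fractions the 3 TOP3A probe sets had log2 differences of 0.15, 0.06 and 0.02, each smaller than its SE of 0.59, 0.27 and 0.30. The suffix _s_at marks probes shared between transcripts, and this probe set was 2.63-fold brighter in set 2 whereas the other 2 were brighter in set 1. TOP3B was close to the limit for testing in every group. The tested TOP3B probe set, MmugDNA.39199.1.S1_at, ranged from 12.6 to 33.3 over the 8 arrays and had a log2 difference of -0.04 (SE 0.44), and the dim one ranged from 12.3 to 27.3 with a difference of -0.09. Folds of TOP3B are therefore not informative.

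SUB1 was lower under RHA siRNA by its brightest probe set, MmugDNA.24130.1.S1_at, and mainly in cytoplasm. It had 240 and 262 in polysomal RNA under RHA siRNA, against 309 and 370 under control siRNA. Cytoplasmic intensities were 161.5 and 161.5 under RHA siRNA, against 443 and 424 under control siRNA. The replicates lay close together in each group and no RHA siRNA array reached a control array. SUB1 by this probe set stood at 37.2% of control in cytoplasm (log2 -1.43, SE 0.29) and at 74.2% in polysomes (log2 -0.43, SE 0.29), and over both fractions at 52.6% (log2 -0.93, SE 0.21; -0.91 in set 1 and -0.95 in set 2).

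With all arrays pooled, the 3 further SUB1 probe sets had the sign of the brightest in cytoplasm but not in polysomes. Probe set MmugDNA.24125.1.S1_s_at had 81.6 and 14.4 in cytoplasmic RNA under RHA siRNA, against 259 and 23.4 under control siRNA. In polysomal RNA it had 164 and 24.3 under RHA siRNA, against 138 and 23.1 under control siRNA. This probe set was 7.08-fold brighter in set 1, and its set 2 values were near the limit for testing. Leaving out the cytoplasmic control array of set 1, its pooled log2 difference was 0.55 in cytoplasm and 0.36 over both fractions, against -1.18 and -0.51 with it, while within set 2, which lacks that array, the cytoplasmic value was -0.70. The pair MmugDNA.30078.1.S1_at and MmugDNA.30078.1.S1_x_at, whose _x_at suffix marks probes that may bind other transcripts, behaved differently. MmugDNA.30078.1.S1_at had 344 and 138 in cytoplasmic RNA under RHA siRNA, against 307 and 218 under control siRNA, and 741 and 176 in polysomal RNA under RHA siRNA, against 399 and 169 under control siRNA. Probe set MmugDNA.30078.1.S1_x_at had 276 and 171 in cytoplasmic RNA under RHA siRNA, against 259 and 278 under control siRNA, and 585 and 173 in polysomal RNA under RHA siRNA, against 331 and 188 under control siRNA. In cytoplasm all 4 SUB1 probe sets had pooled log2 differences below 0 (-1.43, -0.25, -0.31 and -1.18), though the pair was slightly above 0 in set 1. Leaving out the cytoplasmic control array of set 1, the pooled cytoplasmic value of MmugDNA.30078.1.S1_at was 0.00073, while within set 2 it was -0.66. For MmugDNA.30078.1.S1_x_at the pooled value without that array was -0.36. In polysomes the 3 further probe sets lay above 0 (0.48, 0.35 and 0.16) and the brightest below. Averaged over its 4 probe sets SUB1 had a log2 difference of -0.33 over both fractions, so the size of the SUB1 difference depends on the probe set read. After removal of the set means the brightest SUB1 probe set correlated over the 8 arrays with r = 0.85 to MmugDNA.24125.1.S1_s_at and with 0.11 and 0.15 to the pair.

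**Figure D2:**
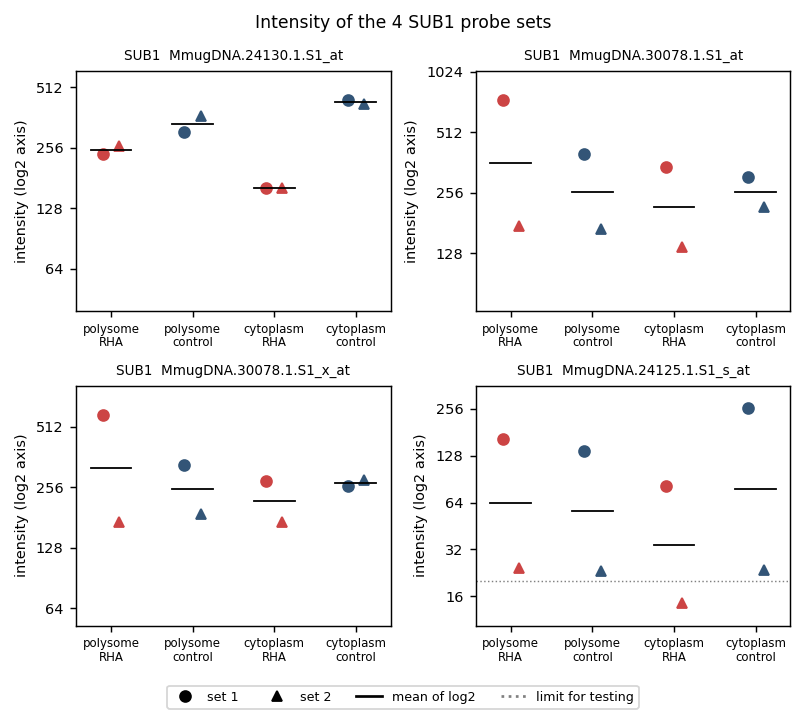
Intensity (log2 axis) of the 4 SUB1 probe sets by group, with set 1 as circles, set 2 as triangles, RHA siRNA in red and control siRNA in blue; bars are means of the log2 values of 2 arrays and the dotted line is the limit for testing. The first panel has replicates close together and the lowest values in cytoplasm under RHA siRNA, while the other panels are spread by set.

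**Figure D3:**
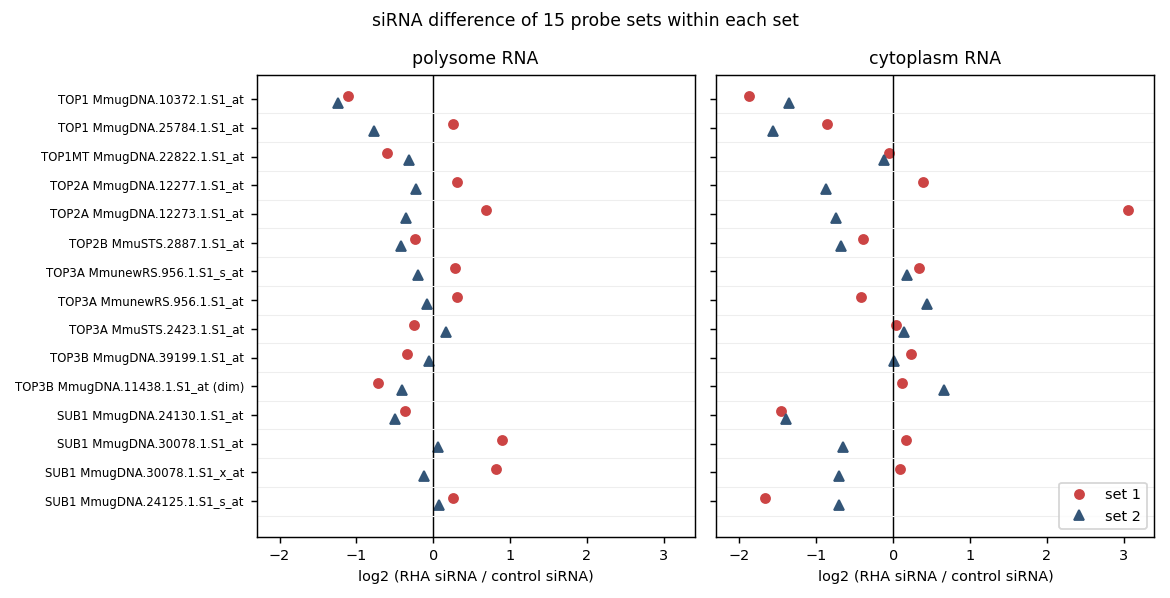
Log2 ratio of RHA over control siRNA for the 15 probe sets in polysomal RNA (left) and cytoplasmic RNA (right), with 1 point per set. In both panels both sets lie left of 0 for the brighter TOP1, the TOP1MT, the TOP2B and the brightest SUB1 probe set, and the cytoplasmic set 1 point of a TOP2A probe set lies far to the right at 3.06.

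The study concerned how loss of RHA changes the loading of RNAs on polysomes, which was read as the polysomal minus the cytoplasmic siRNA effect. SUB1 had a higher polysomal share under RHA siRNA by each of its probe sets. For the brightest SUB1 probe set the log2 ratio of polysomal over cytoplasmic intensity was 0.57 and 0.70 under RHA siRNA, against -0.52 and -0.20 under control siRNA. The loading change was 0.99 (SE 0.42), with 1.09 in set 1 and 0.89 in set 2. The further SUB1 probe sets had loading changes of 0.72 (0.73 and 0.72 in the sets), 0.66 (0.73 and 0.58) and 1.35 (1.92 and 0.77). Their SEs, which include the difference between sets, were 1.17, 0.91 and 2.28, each larger than the change. In a fit that removes that difference the SEs were 0.50, 0.56 and 0.41. All SUB1 probe sets lay above 0 in both sets, but they read the same gene on the same arrays and are not replicates. When the cytoplasmic control array of set 1 was left out, the pooled value of MmugDNA.24125.1.S1_s_at was -0.39, although within set 2 it was 0.77. Without that array MmugDNA.30078.1.S1_at had 0.48 and the brightest probe set 0.96.

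TOP1 went the same way with a smaller or less even change. For its brighter probe set the log2 polysomal over cytoplasmic ratio was 0.57 and 0.46 under RHA siRNA, against -0.20 and 0.34 under control siRNA, a loading change of 0.44 (SE 0.44; 0.77 in set 1 and 0.11 in set 2). Leaving out the cytoplasmic control array of set 1 gave 0.27. The dimmer TOP1 probe set had 0.96 (SE 0.76; 1.13 and 0.80 in the sets), or 1.46 with that array left out. TOP2B had a loading change of 0.21 (SE 0.42; 0.16 and 0.25). Loading was thus higher in both sets for 7 of the 14 tested member probe sets, namely all of TOP1, TOP2B and SUB1, where 26.1% of all tested probe sets had this pattern. The cytoplasmic arrays on which TOP1 and SUB1 were chosen as low enter this difference, so its direction for these genes is not independent of the choice. Limma called 0% of all probe sets for a loading change, with 46 at an unadjusted p under 0.05, and every member had an adjusted p of 1.00. Since each array carried the same RNA input, only loading relative to other RNAs was read.

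Like those of TOP2B and the further SUB1 probe sets, the loading changes of the other members were smaller than their errors in the main fit. Those errors include the difference between sets. In a fit that removes that difference, the SE for TOP1MT was 0.34, below the size of its change. TOP1MT had a loading change of -0.37 (-0.55 in set 1 and -0.20 in set 2). The brighter TOP2A probe set had 0.28 (-0.08 and 0.65) and the other -0.99 (-2.37 and 0.40), which was 1.88 when the cytoplasmic control array of set 1 was left out. The 3 TOP3A probe sets had -0.22 (-0.06 and -0.38), 0.10 (0.72 and -0.52) and -0.13 (-0.28 and 0.02), and the tested TOP3B probe set -0.32 (-0.57 and -0.07).

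**Figure D4:**
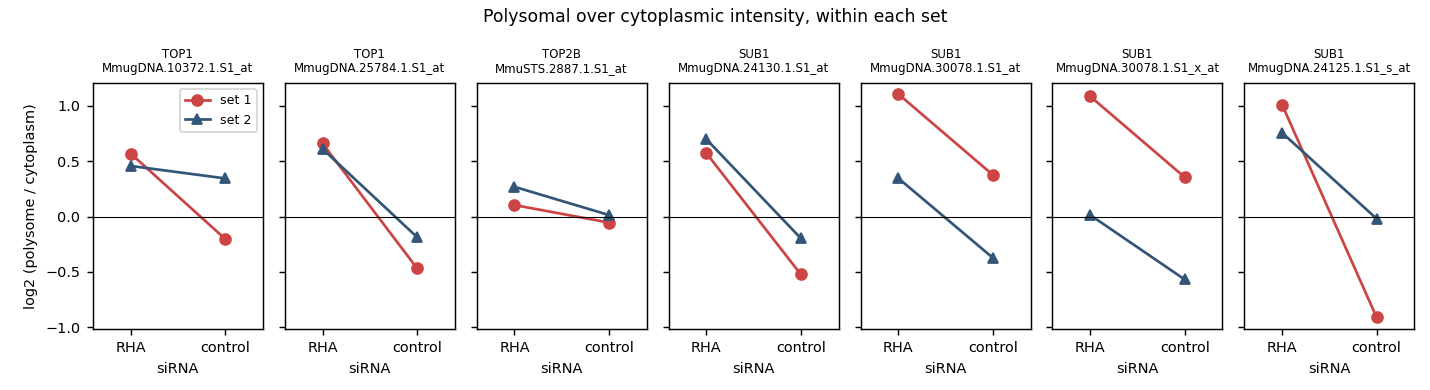
Log2 ratio of polysomal over cytoplasmic intensity under RHA siRNA (left of each panel) and control siRNA (right) for the probe sets of TOP1, TOP2B and SUB1, with a line for each set. Every line is higher at its RHA siRNA end, by 0.11 in set 2 for the brighter TOP1 probe set and by 1.92 in set 1 for SUB1 probe set MmugDNA.24125.1.S1_s_at.

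Taken over both siRNAs, none of the 7 genes was shown to be richer or poorer in polysomes than in cytoplasm. This contrast was not used to choose the members. The log2 ratio of polysomal over cytoplasmic RNA was 0.29 (SE 0.22; 0.18 in set 1 and 0.40 in set 2) for the brighter TOP1 probe set, 0.08 (SE 0.21) for TOP2B and 0.14 (SE 0.21) for the brightest SUB1 probe set. It was 0.22 (SE 0.46) for TOP1MT, 0.21 (SE 0.33) for the brighter TOP2A probe set, 0.40 (SE 0.59) for the brightest TOP3A probe set and -0.15 (SE 0.44) for the tested TOP3B probe set. The other TOP2A probe set, MmugDNA.12273.1.S1_at, had 0.85, number 65 from the top among 26383 tested but smaller than its SE. Within the sets it had 1.51 (set 1) and 0.19 (set 2). Without the cytoplasmic control array of set 1 its pooled value was -0.58. The further probe sets of TOP1 (0.15), TOP3A (0.16 and 0.21) and SUB1 (0.36, 0.22 and 0.21) also had values smaller than their SEs. The TOP3A probe set MmunewRS.956.1.S1_s_at was the single tested member that was higher in polysomes in 4 of 4 comparisons within a set, where 8.67% of all probe sets were. The median of all tested probe sets was 0.07. Limma called 0% of probe sets, with 59 at an unadjusted p under 0.05, and members had adjusted p-values of 1.00.

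The replicate sets differed for the family's probe sets about as often as for the whole array. For 7 of the 14 tested member probe sets all arrays of a set lay above all of the other, which was so for 46.0% of all tested probe sets. The brighter TOP1, the brighter TOP2A, the TOP2B and the brightest SUB1 probe sets were not among them, with log2 set 1 minus set 2 differences of -0.02, 0.48, -0.06 and -0.08.

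The genes most like TOP1 over the 8 arrays, by Pearson's r after removal of the set means among 10105 genes, were AP1M1 (r = 0.999), PHYH (0.989), ELK3 (0.988), EXOSC2 (0.987) and DCTN4 (0.984). Pearson's r compares the shape over the arrays and not the size of the differences. The siRNA differences of these genes over both fractions were -0.25, -0.89, -0.34, -0.77 and -0.19 (log2), against -1.39 for TOP1. The genes most like SUB1 were SLC25A21 (0.986), NEDD1 (0.984), MSN (0.979), LOC707587 (0.978) and PNMA8A (0.978). SUB1 and TOP2B stood at ranks 60 and 82 in likeness to TOP1, with r = 0.94 and 0.93. These values share the same 8 arrays, with siRNA and fraction as their common pattern, and are a description. TOP1 and SUB1 were both chosen as low under RHA siRNA on these arrays, so their likeness is not independent of the choice.

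Among the tested genes that work with the topoisomerases or SUB1, none had a siRNA difference as low as that of TOP1. TOP1 was chosen for its low values under RHA siRNA, so this order is not independent of the choice. By the brightest probe set of each gene, limma called 0 members of any list in any contrast. It called 0 of all 26383 tested probe sets as well, so this count does not set the lists apart from TOP1. Over all 10106 genes tested the median siRNA difference over both fractions was 0.03 (log2), with 46.2% below 0. Among genes that repair trapped topoisomerases and broken DNA ends, 5 of 7 lay above 0 (median 0.10). SPRTN, a protease for DNA-protein crosslinks, had 0.40, PARP1, the break sensor, 0.29, APTX, which removes AMP from DNA ends, 0.15 and RBBP8, an end-resection factor, -0.20.

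Among partners of TOP3A and TOP3B, 4 of 8 lay above 0 (median 0.06). FMR1, which encodes the RNA-binding protein FMRP that associates with TOP3B and TDRD3, had 976 and 670 in polysomal RNA under RHA siRNA, against 1569 and 861 under control siRNA. In cytoplasmic RNA FMR1 had 630 and 422 under RHA siRNA, against 1292 and 1022 under control siRNA. It was lower in each pairing within a set, at a log2 difference of -0.84 (SE 0.31; -0.86 in set 1 and -0.82 in set 2), and the groups overlapped across sets. The single-strand binding subunit RPA2 had 0.44, the helicase BLM 0.41 and the helicase WRN -0.33.

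Genes of condensin, cohesin and CTCF, which shape chromosomes alongside the type II enzymes, lay below 0 for 9 of 10 tested (median -0.14), but the list median was 0.05 in set 1 and -0.36 in set 2. STAG2, a cohesin subunit, had -0.49 (SE 0.23, with -0.60 and -0.39 in the sets). Its RHA siRNA arrays (1067 to 1577) all lay below its control arrays (1676 to 2160), a pattern that 1.38% of all tested probe sets had. SMC3 had -0.29, NCAPG2 -0.28 and NCAPG -0.17. Proliferation and mitosis genes, which accompany TOP2A, lay above 0 for 9 of 10 (median 0.12), with list medians of 0.41 in set 1 and -0.17 in set 2. MKI67 had 1.01 in set 1 and -0.20 in set 2, and CCNB2, AURKA and TPX2 had pooled values of 0.35, 0.31 and 0.25. The brighter TOP2A probe set had the same signs within the sets. In bulk RNA, a different share of dividing cells and a different level per cell cannot be told apart.

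Genes of mitochondrial DNA upkeep, the setting of TOP1MT, lay above 0 for 5 of 6 (median 0.21). SSBP1, the mitochondrial single-strand binding protein, had 0.50, the helicase TWNK 0.42, the packaging factor TFAM 0.27 and the polymerase POLG -0.27. General transcription factors of RNA polymerase II, with which SUB1 works, lay above 0 for 13 of 21 (median 0.10), with TAF12 at 0.74, CCNH at 0.59, TAF10 at 0.34 and TAF4 at -0.46. In polysome loading these lists had medians of -0.03 (general transcription factors) to 0.26 (lesion repair), against -0.03 for all genes, and their medians of polysomal over cytoplasmic RNA were 0.05 to 0.21, against 0.07.

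**Figure D5:**
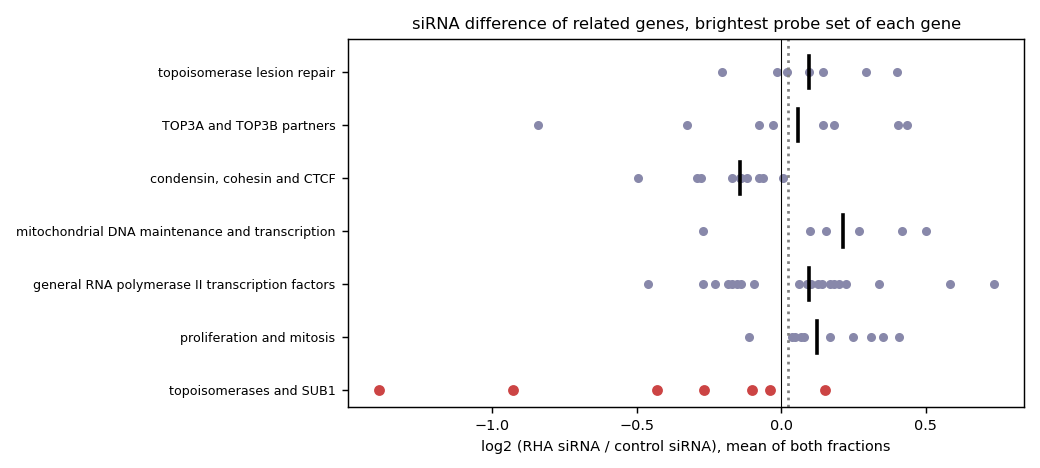
Log2 ratio of RHA over control siRNA, mean of both fractions, for the tested genes of 6 lists (1 point per gene, bar at the list median) and, in red, the brightest probe sets of the 7 members; the dotted line is the median of all genes at 0.03. TOP1 at -1.39 and SUB1 at -0.93, both chosen as low under RHA siRNA, lie left of every listed gene. FMR1 at -0.84 is the lowest of the listed genes.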

How the data were processed

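RNA of 8 COS cell samples (2 per group) was measured on single-colour Affymetrix rhesus macaque arrays. The authors deposited 1 intensity per probe set and array, linear and not on a log scale, taken here as already normalised. GCOS and RMA are listed, per the submitters' processing notes, without version or role. Genes came from the platform annotation, where 24972 probe sets had 1 symbol, 358 several and 27535 none. Values were put on the log2 scale, and the brighter 50% of non-control probe sets (26383) were tested in R 4.3.3 with limma's moderated linear model (version 3.58.1, 4 group means, two-sided, Benjamini-Hochberg adjusted over all of them, threshold 0.05), a procedure tested on simulated data, where it made no calls. Arrays have no read depth, and their number limits the precision. Members and gene lists were chosen with earlier results of these data known. Named were all members, the 4 genes per list with the largest siRNA difference and the 5 genes most like TOP1 and SUB1. Alternatives were the set as a block, quantile normalisation, other brightness limits, an offset, a trended prior, the mean over probe sets and each array left out. Not every list gene had a probe set with its symbol.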

Additional observations from a re-analysis of the deposited data

Results flagged for a closer look

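In 2 of the 14 tested member probe sets the siRNA effect had opposite signs in the fractions in both sets. SUB1 probe set MmugDNA.24125.1.S1_s_at had polysomal values above 0 (0.25 and 0.07, log2) and cytoplasmic values below 0 (-1.66 and -0.70), a difference of 1.35. TOP3B probe set MmugDNA.39199.1.S1_at had polysomal values below 0 (-0.34 and -0.05) and cytoplasmic values above 0 (0.23 and 0.02), a difference of -0.32 at intensities near the limit for testing. Neither difference passed limma's test (adjusted p = 1.00 each).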

How the results depend on the processing

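With the replicate block limma called 2 probe sets for the siRNA effect over both fractions and 0 in the other 4 contrasts. Quantile normalisation, both other brightness limits, the offset, the trended prior and each of 8 fits without an array also gave 0 calls. That says nothing about stability, since the fit without the block made no calls in the self-test either. With the block, the self-test recovered 71 of 100 probe sets changed by log2 2 for the siRNA effect over both fractions. It recovered 70 of 100 for polysomal over cytoplasmic RNA and 0 for loading. Of 100 changed by log2 1, it recovered 12, 10 and 0. Chosen after seeing the data, the block was combined with leaving out an array, which gave 0 to 954 calls over both fractions, 0 to 1150 in cytoplasm, 0 to 274 for polysomal over cytoplasmic RNA and 0 for polysomes and loading. In these fits the lone array of a group is assumed to vary like the other groups. The 954, 1150 and 274 calls came without the cytoplasmic control array of set 2. With the cytoplasmic control array of set 1 left out instead, 33 were called over both fractions. Calls of members in these siRNA contrasts are not given, since the contrasts chose TOP1 and SUB1. The set 1 minus set 2 differences of the groups correlated with r = 0.680 to 0.868 across probe sets, but the labels do not pair the arrays.

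Without 1 array, siRNA differences ranged from -1.48 to -1.31 for TOP1, -0.99 to -0.86 for SUB1 and -0.48 to -0.38 for TOP2B, and loading changes from 0.27 to 0.61, 0.86 to 1.13 and 0.10 to 0.31 for the same genes. Loading ranged across 0 for TOP1MT (-1.04 to 0.30), TOP2A (-0.25 to 0.82), TOP3A (-1.03 to 0.59) and TOP3B (-0.995 to 0.35). Polysomal over cytoplasmic RNA did so for TOP1MT (-0.12 to 0.55), TOP2A (-0.058 to 0.48), TOP3A (-0.0013 to 0.81) and TOP3B (-0.49 to 0.18). The mean over probe sets turned TOP2A loading to -0.35, and quantile normalisation turned the TOP2B ratio to -0.00074; the cause was not tested.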
